A study of Rattus norvegicus with 6 samples.

Results

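Chemokines are small secreted proteins that direct the migration of leukocytes, and the genes described here are the chemokine ligands and their receptors in rat heart. They were chosen by name. A gene counted where the array file's gene name began with Ccl, Cxcl, Ccr, Cxcr, Cx3c, Xcl, Xcr or Ackr and continued as a chemokine name does, and Pf4, the platelet chemokine also called Cxcl4, was added. This gave 56 of the 26316 genes on the array, 35 ligands and 21 receptors, read by 62 probes. Of these, 40 genes could be tested and the other 16 were too dim. The probe of a gene with the highest mean signal stood for it, and any other probe served as a check.

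Expression was read in whole hearts on 6 single-colour Agilent arrays, 3 of animals treated with AACO and 3 of controls. AACO is a Chinese medicine formula, its letters unexplained in the labels, that was studied against chronic heart failure. The treated animals received AACO solution at 0.386 µg/g once a day for 8 weeks, the controls received as much double-distilled water, and tissue was taken from all of them 24 h after dosing ended. The series text says that all animals, controls included, had TAC, which usually stands for transverse aortic constriction, an operation that narrows the aorta and overloads the left ventricle. It calls them mice, but rat is the species in the sample labels and rn4, a rat genome build, that of the probe positions, so they are described as rats. No strain, age or animal without the operation is given, so the comparison is between treated and untreated operated hearts. The text states that separate experiments used different donors, but the labels tie no array to an animal, so the p-values reflect only how much these samples spread.

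Ligands of the CC, CXC, CX3C and XC families, named after the spacing of their first cysteines, are held on heparan sulphate at the vessel wall and bind receptors coupled to inhibitory G proteins on leukocytes. Inflammatory ligands are made on demand by macrophages, endothelium, fibroblasts and cardiomyocytes, and in the overloaded or injured heart Ccl2 and its receptor Ccr2 are best known for bringing in monocytes. Homeostatic ligands such as Cxcl12, Ccl19 and Ccl21 are made continuously and place cells within tissues. Atypical receptors bind chemokines without signalling through G proteins and remove them.

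A value below is a level, the log2 signal of a probe minus the 75th percentile of its array, so that 0 is that percentile. Changes are log2 fold changes, AACO minus control, from limma's fit over all 17536 genes tested, with the standard error and a Benjamini-Hochberg adjusted p. A gene is said to have risen, fallen or differed where that p was under 0.05. The 3 AACO arrays shared 1 slide and scan day, and the 3 control arrays shared a different slide and day, so slide and treatment cannot be told apart for any value below. The AACO arrays were brighter, with 70.9% to 72.4% of spots well above background against 66.0% to 68.7% on the control arrays. Atrial genes also set arrays apart, as the mean level of Myl7 and Sln was 3.11 and 5.08 on AACO arrays 1 and 2, −0.73 on AACO array 3 and −2.0, −1.66 and −1.05 on the control arrays. All 10 cardiomyocyte markers listed were well above background on all 6 arrays.

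Among the 40 chemokine genes tested, 6 fell and 4 rose with AACO, while without scaling between arrays 3 fell and 13 rose. The 6 that fell are 15% of those tested, beside 4.84% of all genes tested, and the 4 that rose are 10%, beside 6.33% of all genes. In either direction 11.2% of all genes differed. At an unadjusted p under 0.05 by limma stood 5403 of the 17536 genes, and such counts below are to be read beside that. Of the chemokine genes 8 were higher and 9 lower at that p, beside 3178 and 2225 of all genes. The 6 genes that fell were ligands, of 29 ligands tested, and those that rose were the ligand Xcl1 and the receptors Cx3cr1, Ccr10 and Ccr2, of 11 receptors tested. Ccr2 could be tested only because of its signal on the AACO arrays, and Cxcl2 only with that on the control arrays. Each was higher there, so the rise of Ccr2 and the fall of Cxcl2 add nothing to these counts. Of the 35 chemokine genes well above background on all 6 arrays, 3 rose and 6 fell, Ccl6 among them. Of 15522 such genes in all, 1166 rose and 953 fell. With normexp only Cx3cr1 rose. The median change was −0.14 over the chemokine genes tested and 0.04 over all genes tested. Groups of arrays that did not overlap were found for 10 chemokine genes lower and 7 higher with AACO, or 25% and 17.5%, beside 15.6% and 21.8% of all genes, and 37.4% in either direction.

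**Figure D1:**
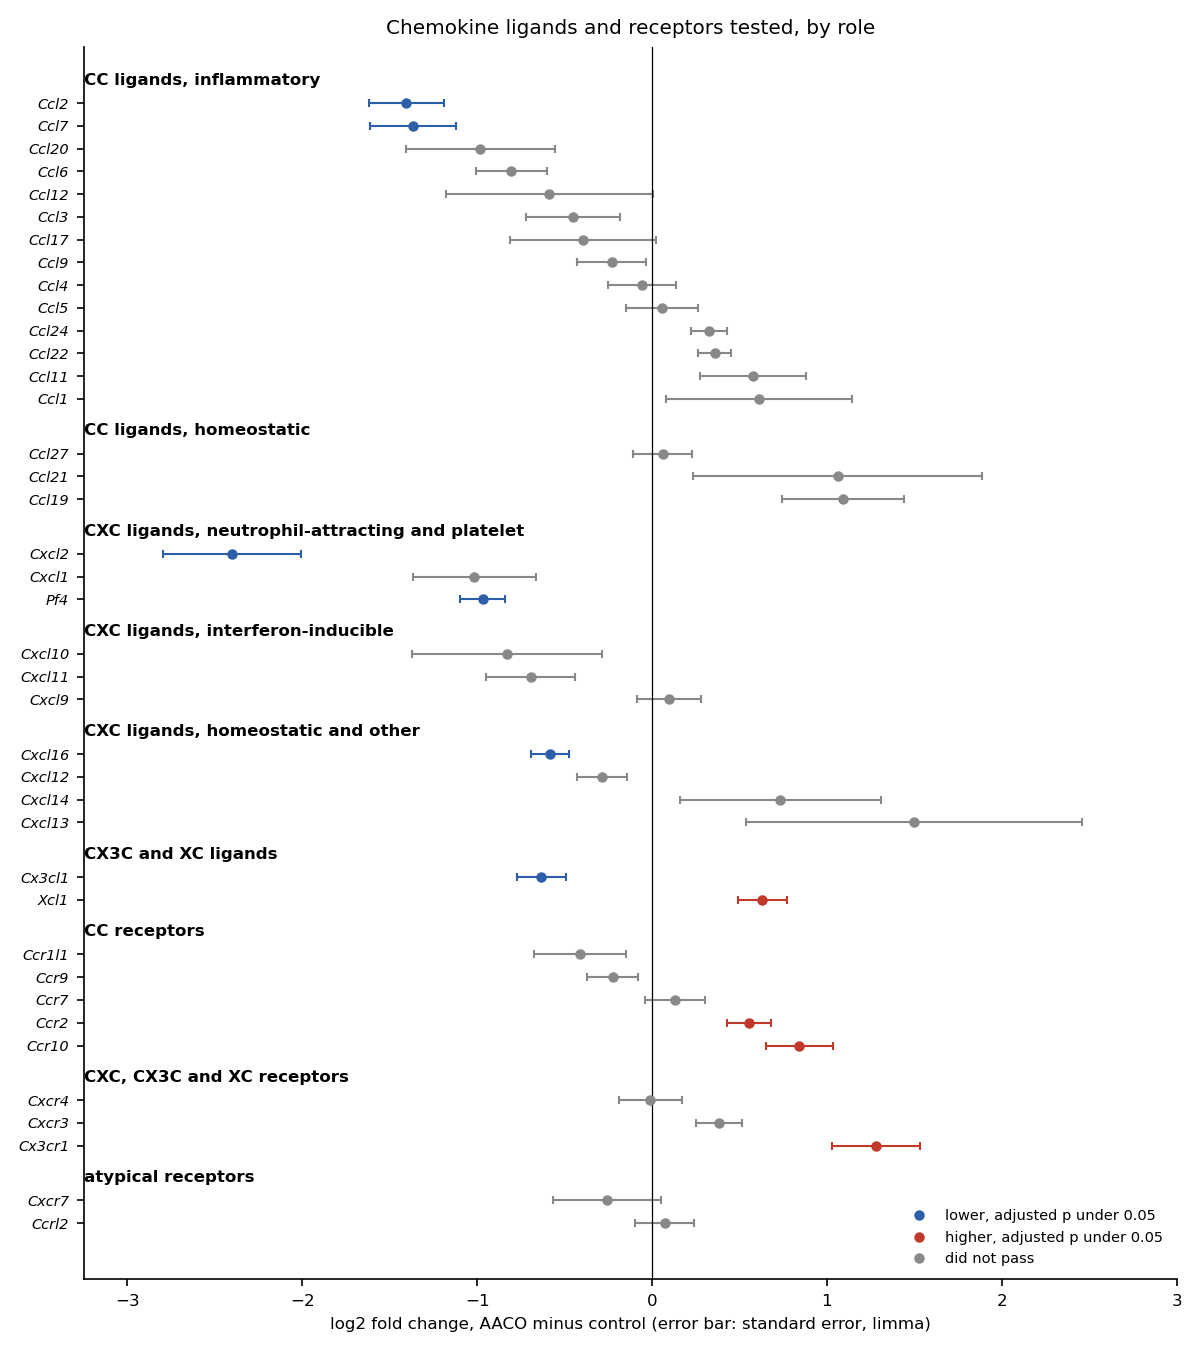
Log2 fold change, AACO minus control, of the chemokine genes tested and reported here, grouped by role. Each point is 1 gene with its standard error as a bar, blue where it fell, red where it rose and grey where it did not pass. The 6 genes that fell are ligands, from Cxcl2 at −2.40 to Cxcl16 at −0.59, and the genes that rose are Cx3cr1, Ccr10, Xcl1 and Ccr2.

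The monocyte-attracting ligands Ccl2 and Ccl7, which share the receptor Ccr2, fell together. The levels of Ccl2 were −1.86, −2.37 and −2.35 on the AACO arrays and −1.04, −0.89 and −0.43 on the control arrays. Every AACO array was thus below every control array. The change was −1.41 ± 0.21 (adjusted p = 0.0161), or 2.65-fold lower. Ccl7, also called MCP-3, stood at −3.47, −4.11 and −4.09 with AACO and at −2.91, −2.44 and −2.22 in controls. These groups did not overlap either, and AACO array 1 was the treated array nearest to the controls for both genes. The change of Ccl7 was −1.37 ± 0.25 (adjusted p = 0.0243), or 2.58-fold lower. Ccl2 no longer passed without AACO replicate 2, at an adjusted p of 0.0747. For Ccl7 the adjusted p was 0.0924 without AACO replicate 2, 0.0505 without AACO replicate 3, 0.0572 without control replicate 2 and 0.0688 without control replicate 3. In whole tissue, fewer cells of a type and less RNA per cell cannot be told apart, for these and all other genes here.

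Both genes lie in 1 cluster on chromosome 10 of rn4, and the start of each 60-base probe is given to fix which transcript was read. The Ccl2 probe lies at chr10:70257919-70257978 and the Ccl7 probe at chr10:70268674-70268733, both on the plus strand, and the first 30 bases are shown 5′ to 3′.
Ccl2: tttatttctctgtgaatcctggttcaacac
Ccl7: ttagacatgaaaacttcaactccaaagccc
The cluster holds 5 chemokine genes on the array, and the other 3 did not differ. Ccl12, a further Ccr2 ligand, had a change of −0.59 ± 0.59 (adjusted p = 0.535) and was well above background on only 2 AACO arrays and 1 control array. Ccl11, the eosinophil ligand eotaxin, had a change of 0.57 ± 0.30 (adjusted p = 0.252). For Ccl1, a ligand of Ccr8, the change was 0.61 ± 0.53 (adjusted p = 0.472). The 2 genes that fell are therefore neighbours within the cluster, and the rest of it showed changes of both signs that did not pass.

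Ccr2 itself, the receptor of Ccl2 and Ccl7 on inflammatory monocytes, did not fall. Its levels were −5.15, −5.36 and −5.55 with AACO and −5.97, −5.84 and −5.91 in controls, where the probe was not well above background on any array. The AACO arrays were above all controls, and the difference was 0.56 ± 0.13 (adjusted p = 0.0427), or 1.47-fold higher. That fold is an estimate and not a bound, as the floor used for dim probes did not change it. With another background correction, normexp, the sign turned, to −0.17 (adjusted p = 0.494). The call also ended at an adjusted p between 0.0794 and 0.129 when any 1 of AACO replicates 1 and 2 or control replicates 1, 2 and 3 was left out. Ccr2 met the filter on dim probes through the AACO arrays alone.

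In another ligand and receptor pair, the ligand Cx3cl1 fell and its receptor Cx3cr1 rose. Cx3cl1, or fractalkine, is a membrane-bound chemokine of endothelium that is shed by proteases, and Cx3cr1 marks patrolling monocytes, some tissue macrophages and NK cells. Cx3cl1 had levels of 1.80, 1.93 and 1.61 on the AACO arrays and 2.47, 2.21 and 2.56 on the control arrays. The groups did not overlap, and the change was −0.63 ± 0.14 (adjusted p = 0.0387), or 1.55-fold lower. Cx3cr1 had levels of 1.60, 0.84 and 0.85 with AACO and −0.51, −0.07 and 0.03 in controls. All treated arrays were above all controls, AACO array 1 the furthest, and the change was 1.28 ± 0.25 (adjusted p = 0.0296), or 2.43-fold higher. The Cx3cr1 rise was the largest of the 4 rises. Leaving out any 1 array other than AACO replicate 3 took the adjusted p of Cx3cr1 to between 0.0573 and 0.0814. For Cx3cl1 it rose to between 0.0664 and 0.115 when any 1 array other than control replicate 2 was left out.

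The probes of this pair and of Ccr2 begin as follows, 5′ to 3′, and they are shown because the ligands and receptors were read on different chromosomes by separate probes. Cx3cl1 was read at chr19:10667029-10667088 and Cx3cr1 at chr8:125033728-125033787, both on the minus strand, and Ccr2 at chr8:128893805-128893864 on the plus strand (rn4).
Cx3cl1: ttgggacacccatggttggactttgttggt
Cx3cr1: gagttcctgcatctgactctgtgtaatgaa
Ccr2: tctgcaaacaatgcccagttttctataggg

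**Figure D2:**
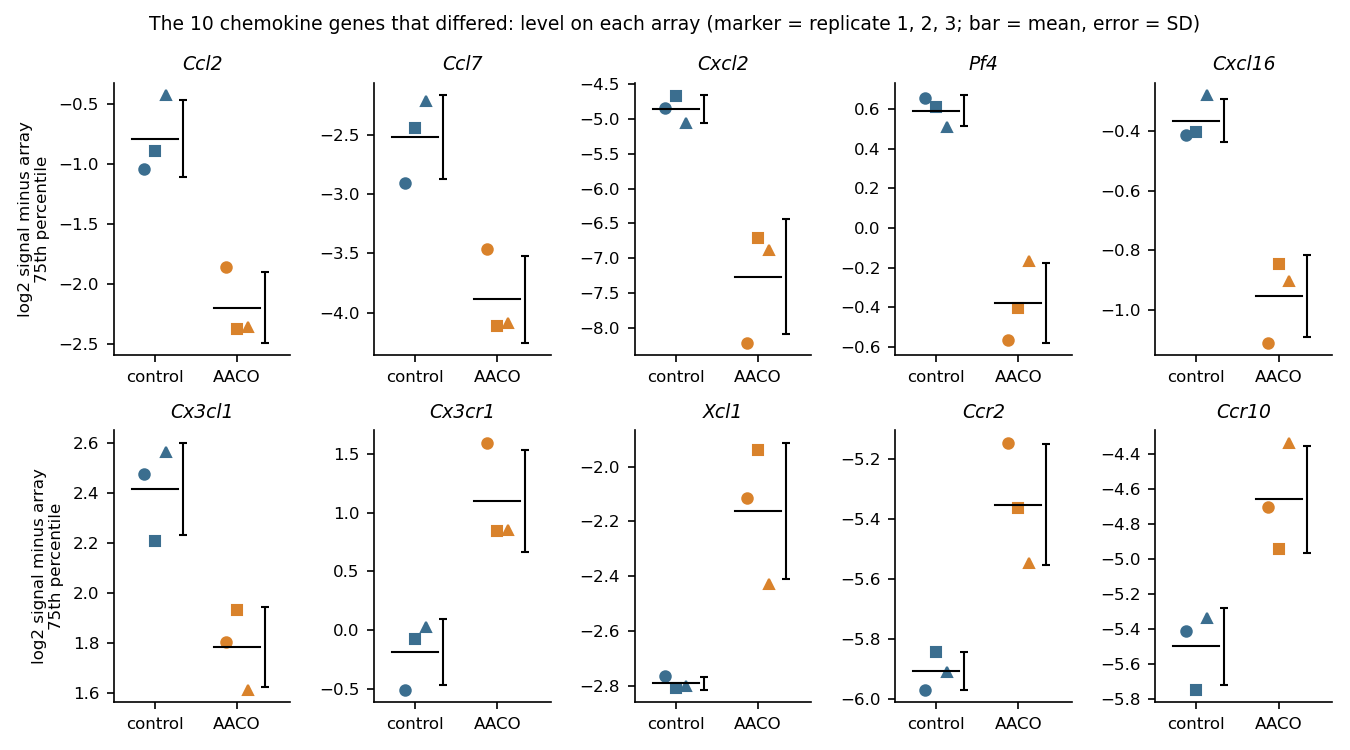
Level on each array of the 10 chemokine genes that differed, as log2 signal minus the array's 75th percentile, with controls in blue, AACO in orange and marker shapes for replicates 1, 2 and 3. Lines are means of 3 arrays and bars are SD. In every panel the groups do not overlap, with the widest gap in Cxcl2, and the vertical axes differ between panels.

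The ligands of the Cxcl1 cluster on chromosome 14, which attract neutrophils or come from platelets, had lower levels with AACO for the 3 of 5 that could be tested. Cxcl2, which draws neutrophils through Cxcr2, stood at −8.21, −6.70 and −6.88 on the AACO arrays and −4.85, −4.67 and −5.06 on the control arrays. It was well above background on 1 of 3 AACO arrays and on all controls, so it met the filter on dim probes only with the control arrays. The change was −2.40 ± 0.40 (adjusted p = 0.0196), or 5.28-fold lower, with no overlap between groups. With normexp background correction the change was smaller, −0.88 (adjusted p = 0.00849). Pf4, released from platelet granules, stood at −0.57, −0.40 and −0.17 with AACO and 0.66, 0.61 and 0.51 in controls. It was clearly separated between groups, with a change of −0.97 ± 0.13 (adjusted p = 0.0121), or 1.96-fold lower. Cxcl1, like Cxcl2 a Cxcr2 ligand, had levels of −4.00, −4.02 and −4.93 with AACO against −3.66, −3.56 and −2.68. Its groups did not overlap, but with a change of −1.02 ± 0.35 it did not pass (adjusted p = 0.113). Cxcl3 and Cxcl5, the latter now named Cxcl6, were well above background on no array. Without AACO replicate 2 neither Cxcl2 nor Pf4 passed, at adjusted p of 0.053 and 0.0621, and Cxcl2 had 0.0541 without control replicate 3.

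The promoters of several of these ligands hold a match to the binding consensus of NF-kappaB, the transcription factor through which inflammatory cytokines induce many chemokine genes. RefSeq promoters of the GRCr8 assembly matched 42 of the 56 genes, 7 of the 10 that differed among them. In the 250 bases before the start, on both strands, 9 of the 42 held the consensus (21.4%), beside 6.33% of all 33469 promoters in the table. Of those 9 genes, 7 could be tested, and all 7 had a negative log2 fold change, as did 22 of the 40 chemokine genes tested, though only Ccl7 and Cxcl2 fell. Among genes well above background on all 6 arrays, which leaves out Cxcl2, 6 of 6 and 19 of 35 were negative. Without scaling between arrays 6 of the 7 and 12 of the 40 were negative. With normexp 7 of the 7 and 29 of the 40 were, and with the atrial level as a covariate 7 and 28. The 6 of these 7 with a change of at least 0.5 in size are printed, 90 bases each, 5′ to 3′ on the gene's strand, with the match in capitals. The stretches are chr14:17467280-17467369 for Cxcl2 and chr14:17479356-17479445 for Cxcl1, both on the minus strand. Those on the plus strand are chr10:67513996-67514085 for Ccl7, chr9:91837030-91837119 for Ccl20, chr14:15973614-15973703 for Cxcl11 and chr14:15988869-15988958 for Cxcl10.
Cxcl2: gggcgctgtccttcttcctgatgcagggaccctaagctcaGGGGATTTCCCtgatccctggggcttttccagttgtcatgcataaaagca
Cxcl1: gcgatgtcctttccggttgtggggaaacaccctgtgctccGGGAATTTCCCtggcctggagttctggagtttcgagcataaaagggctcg
Ccl7: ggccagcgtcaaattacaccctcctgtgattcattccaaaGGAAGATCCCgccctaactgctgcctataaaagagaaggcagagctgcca
Ccl20: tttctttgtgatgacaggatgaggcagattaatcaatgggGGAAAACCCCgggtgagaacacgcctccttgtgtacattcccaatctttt
Cxcl11: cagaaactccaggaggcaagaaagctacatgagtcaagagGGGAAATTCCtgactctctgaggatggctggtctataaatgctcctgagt
Cxcl10: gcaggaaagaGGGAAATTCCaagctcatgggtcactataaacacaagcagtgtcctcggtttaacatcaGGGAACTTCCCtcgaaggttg
Runs of 11 capitals are matches that overlap by all but 1 base. They lie on opposite strands in Cxcl1 and Cxcl10, and in Cxcl2 both can be read on the printed strand. The other tested gene with a match was Ccl9, with a change of −0.23, and Ccr3 and Cxcl5 also held one and were not tested. The AP-1 motif TGANTCA lay in 16.7% of the matched promoters, beside 6.34% of all promoters, and the TATA motif TATAAA in 28.6%, beside 12.9%. Among tested genes 10 of 12 with the TATA motif and 3 of 4 with AP-1 also had negative changes. The negative sign was thus not particular to genes with an NF-kappaB match. The interferon-related motifs, GAS (TTCNNNGAA) and the ISRE, lay in 9.52% and 4.76%, beside 7.67% and 3.41% of all. These matches describe letters in a window and are not measured binding sites.

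No inflammatory CC ligand other than Ccl2 and Ccl7 passed in the processing reported. Ccl6, a macrophage and neutrophil product of the cluster from Ccl5 to Ccl4 on chromosome 10, stood at −0.41, −0.23 and −0.70 with AACO and 0.42, 0.00 and 0.64 in controls. Its change of −0.80 ± 0.20 missed the threshold (adjusted p = 0.0531), but it fell under 9 of 18 alternatives. Among these were median scaling (adjusted p = 0.0416), normexp (0.0314) and its other probe, which gave −1.36 (0.0277). Ccl20, the ligand of Ccr6, had levels of −4.70, −4.60 and −4.22 against −3.90, −2.52 and −4.16. The separation was narrow, control array 2 stood far above the rest, and the change of −0.98 ± 0.43 did not pass (adjusted p = 0.178). Its other probe gave −0.73, also without overlap.

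The T-cell-attracting ligands Cxcl9, Cxcl10 and Cxcl11, which interferon induces and Cxcr3 binds, gave no gene that differed. Cxcl11 stood at −0.92, −0.37 and −0.31 on the AACO arrays and 0.63, −0.12 and −0.03 on the control arrays. The groups met closely without overlap, and the change was −0.69 ± 0.25 (adjusted p = 0.126), with an unadjusted p under 0.05. Cxcl10 ranged from −4.63 to −3.87 with AACO and from −4.32 to −2.13 in controls, a change of −0.83 ± 0.55 (adjusted p = 0.345). Cxcl9 had a change of 0.10 ± 0.19 (adjusted p = 0.756). Their receptor Cxcr3 was higher on every AACO array than on every control array, but by 0.38 ± 0.13 (adjusted p = 0.111).

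Cxcl16, a membrane-bound scavenger of oxidised lipid on macrophages and endothelium that also attracts Cxcr6-bearing T cells, fell. Its levels were −1.11, −0.85 and −0.90 with AACO and −0.41, −0.40 and −0.28 in controls. The groups were well apart, with a change of −0.59 ± 0.11 (adjusted p = 0.0265), or 1.50-fold lower. The receptor Cxcr6 was well above background on 1 array of each group and was not tested. Leaving out AACO replicate 1, AACO replicate 2, control replicate 2 or control replicate 3 ended the call of Cxcl16, with an adjusted p between 0.0565 and 0.0833.

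Xcl1 was the only ligand that rose. It is made by activated T and NK cells and binds Xcr1, a receptor of cross-presenting dendritic cells. Its levels were −2.11, −1.94 and −2.43 with AACO and −2.76, −2.81 and −2.80 in controls. The treated arrays were all higher, the controls lay close together, and the change was 0.63 ± 0.14 (adjusted p = 0.0407), or 1.55-fold higher. The other Xcl1 probe had levels of −3.14, −3.02 and −3.43 against −3.22, −4.05 and −3.58, which overlap, and its change of 0.42 did not pass (adjusted p = 0.269). Xcr1 was not well above background on any array with either probe. Leaving out any 1 array other than AACO replicate 3 raised the adjusted p of Xcl1 to between 0.075 and 0.128.

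Ccr10, the receptor for the skin and mucosal ligands Ccl27 and Ccl28, rose. The AACO arrays gave −4.70, −4.94 and −4.33 and the control arrays −5.41, −5.75 and −5.34. They did not overlap, and the change was 0.84 ± 0.19 (adjusted p = 0.0421), or 1.79-fold higher. With normexp it was 0.06 (adjusted p = 0.777), and it missed the threshold when any 1 of the 6 arrays was left out, at an adjusted p between 0.0604 and 0.122. Of its ligands, Ccl27 had a change of 0.06 ± 0.17 (adjusted p = 0.836) and Ccl28 was not well above background anywhere.

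The remaining CC receptors gave no gene that differed, by limma at the adjusted threshold or at an unadjusted p under 0.05. Ccl3, Ccl4 and Ccl5, which attract T cells and monocytes, had changes of −0.45, −0.06 and 0.06, and none of them passed. Ccr9, a gut-homing receptor, and Ccr1l1, a Ccr1-like gene, had changes of −0.23 and −0.41, and Ccr7 had 0.13. Ccr1, a receptor of Ccl3 and Ccl5, was too dim to test. It was well above background on 1 control array and on no AACO array, with levels of −7.81, −7.93 and −8.75 against −6.36, −5.92 and −5.91. With a floor for dim probes this is 2.70-fold lower, which is not a minimum, as the control arrays were mostly dim too. Ccr6, the receptor of Ccl20, moved the other way and was also not tested. Its levels were −6.40, −6.25 and −7.30 with AACO, well above background on 2 arrays, and −7.92, −7.69 and −7.59 in controls, on none. With that floor this is 1.19-fold higher. Ccr8 was well above background on 1 AACO array only.

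The chemokine receptors on chromosome 8 lie largely in 1 cluster, of which 8 genes were on the array and 4 were tested. Ccr2 was the 1 that differed there, and the changes of Ccr1l1 and Ccr9 were negative and did not pass. Cx3cr1 lies on the same chromosome outside that cluster. The cluster from Ccl5 to Ccl4 on chromosome 10 had 5 genes tested and none that differed, though 1, Ccl6, had an unadjusted p under 0.05.

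The homeostatic axis of Cxcl12 and its receptors did not differ. Cxcl12, which retains progenitor cells and attracts repair cells to injured heart, stood at 2.78, 3.07 and 2.77 with AACO and 3.33, 3.19 and 2.96 in controls. The groups overlapped slightly, with a change of −0.29 ± 0.14 (adjusted p = 0.226), and a probe of another Cxcl12 transcript gave the opposite sign, 0.26. Cxcr4, its signalling receptor, had a change of −0.01 ± 0.18 (adjusted p = 0.976). Cxcr7, now named Ackr3, is the atypical receptor that removes Cxcl12, and had a change of −0.26 ± 0.31 (adjusted p = 0.609). Ccrl2, an atypical receptor that presents chemerin, had a change of 0.07 ± 0.17 (adjusted p = 0.802). A further atypical receptor, Ackr2, which degrades inflammatory CC ligands including Ccl2 and Ccl7, is listed by the array file under the older name Ccbp2 and so fell outside the naming rule. It stood at −4.69, −4.78 and −4.81 with AACO and −3.93, −4.23 and −4.06 in controls. Its groups did not overlap, and it fell by 0.69 ± 0.11 on the log2 scale (adjusted p = 0.0192). Ackr2 was named after its values were seen.

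The ligands Cxcl13, Cxcl14, Ccl19 and Ccl21, of lymphoid and barrier tissue, varied within a group, and none of them differed. Cxcl13, the B-cell attractant that binds Cxcr5, stood at −2.14, −1.38 and −5.03 with AACO and −5.15, −4.38 and −3.52 in controls. AACO arrays 1 and 2 were higher than all controls and AACO array 3 lay among them, so the change of 1.50 ± 0.96 did not pass (adjusted p = 0.334). Cxcl14, made by epithelium and fibroblasts, had levels of −0.87, −0.93 and −2.76 against −2.93, −2.14 and −1.68. Here too AACO arrays 1 and 2 were above all controls and AACO array 3 was among them. Its change was 0.73 ± 0.57 (adjusted p = 0.424). AACO arrays 1 and 2 are also those with the high atrial levels given above, and the part of atrial tissue in these values was not tested. Ccl19 and Ccl21, the ligands of Ccr7 that guide dendritic cells and T cells, had changes of 1.09 ± 0.35 (adjusted p = 0.0941) and 1.06 ± 0.83 (adjusted p = 0.421). Ccl19 stood at 0.94, 0.57 and −0.13 with AACO and −1.14, −0.12 and −0.64 in controls. These groups overlapped only slightly, and the unadjusted p of Ccl19 by limma was 0.019. Ccl21 ranged from −2.92 to 0.30 over the control arrays alone.

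**Figure D3:**
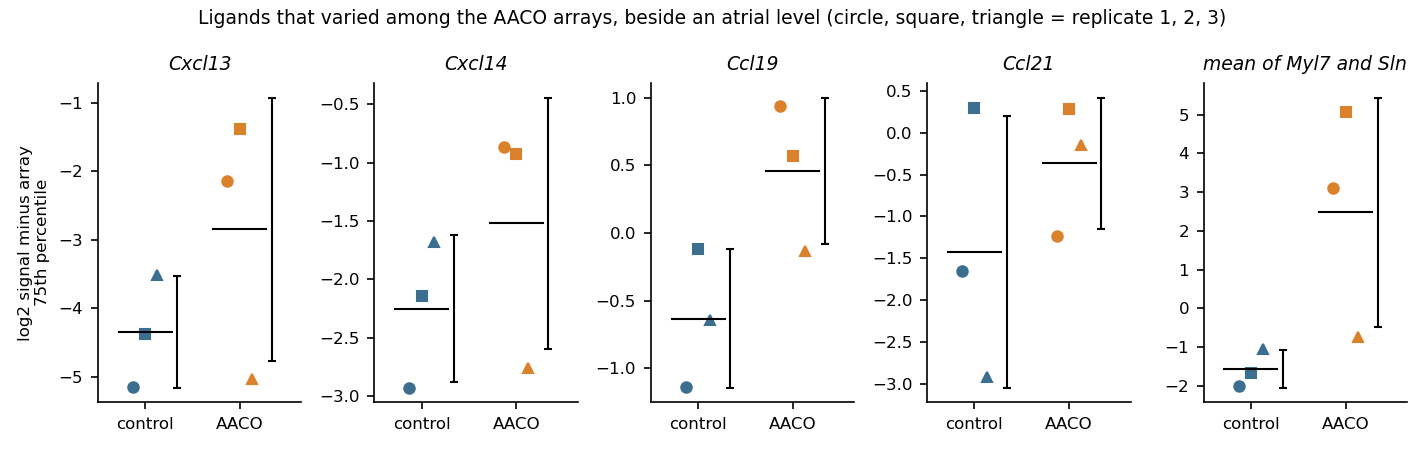
Level on each array of 4 ligands that did not pass and varied within groups, beside the mean level of the atrial genes Myl7 and Sln, as log2 signal minus the array's 75th percentile. Marker shapes give replicates 1, 2 and 3, lines are means of 3 arrays and bars are SD. For Cxcl13 and Cxcl14, AACO replicate 3 (triangle, −5.03 and −2.76) lies with the controls while replicates 1 and 2 lie above them, and in the atrial panel replicates 1 and 2, at 3.11 and 5.08, lie above the other arrays.

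The eosinophil ligand Ccl24 and the Ccr4 ligand Ccl22 were slightly higher on every AACO array. Ccl24 stood at 3.11, 3.14 and 2.91 against 2.70, 2.73 and 2.75, a change of 0.33 ± 0.10 that did not pass (adjusted p = 0.0885). Ccl22 had a change of 0.36 ± 0.09 (adjusted p = 0.0607). Ccl17, which shares the receptor Ccr4 and lies beside Ccl22 and Cx3cl1 on chromosome 19, had −0.39 ± 0.42 (adjusted p = 0.556). Not well above background on any array were Ccl25, Ccl26, Ccl28, Cxcl3, Cxcl5, Ccr3, Ccr4, Cxcr1, Cxcr5 and Xcr1. Receptors for eosinophil, neutrophil and B-cell chemokines are among these. By their brightest probes all of these genes had negative changes, from −1.32 for Cxcl3 to −0.55 for Ccl26. Lower levels of dim probes, such as that of Ccr1, are to be read beside them. Cxcl17 and Cxcr2 were well above background on 1 AACO array each and were not tested.

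Macrophage markers were lower on the arrays on which the ligands were lower. Of 11 macrophage markers tested, 9 fell and none rose, beside 4.84% and 6.33% of all genes, and their median change was −1.21. Without scaling between arrays 7 fell and 1 rose. The marker lists were chosen with earlier results of these data known. Their summed signal, in multiples of each array's 75th percentile, was 7.06 to 9.10 on the AACO arrays and 15.9 to 21.3 on the control arrays. Mrc1, the mannose receptor, had the largest change, −2.44 ± 0.24 (adjusted p = 0.00714), and Adgre1, a classical surface marker of macrophages, had −1.50 ± 0.16 (adjusted p = 0.00825). Csf1r and Mertk, which macrophages also express, had changes of 0.04 and 0.27 and did not pass. No macrophage marker was at background on all arrays. Cx3cr1, which some macrophages and monocytes carry, rose on the arrays on which most macrophage markers were lower. Without AACO replicate 1, 5 macrophage markers fell, without AACO replicate 2, 6 did, and with the atrial level as a covariate none passed while 9 of 11 kept a negative sign. The part of macrophage content in the chemokine changes was not tested.

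Other leukocyte and vessel marker lists held at most 2 genes that fell, but normexp gave 4 of 6 for neutrophils, and limma with trend and robust gave 3 of 6 for neutrophils and 4 of 10 for monocytes. Over all genes tested 4.84% fell in the processing reported. Of 10 monocyte markers 2 fell, Cd14 by 1.09 and Itgam by 0.61 on the log2 scale, and their summed signal was 11.2 to 23.7 with AACO and 17.9 to 20.1 in controls. Of 6 neutrophil markers 1 fell, Retnlg by 1.60, S100a8 had −1.58 (adjusted p = 0.0520), all 6 had an unadjusted p under 0.05, and Csf3r, Elane and Mmp8 were at background on all arrays. Their summed signal was 0.802 to 1.48 against 1.87 to 2.52. Of the 4 platelet markers tested besides Pf4 none passed, 3 had negative changes and 1, Gp5 at −0.50 ± 0.19, had an unadjusted p under 0.05. Treml1 was next at −0.60, and with normexp 2 of the 4 fell. Whether Pf4 differed from them was not tested, and which cells held the Pf4 RNA cannot be told in whole tissue. The summed signal of the platelet markers was 1.55 to 1.61 with AACO and 1.43 to 1.85 in controls. Of 12 T and NK cell markers 1 fell, Cd4 by 1.05, Nkg7 had 0.38 ± 0.27, and Cd3e was at background on all arrays. Of these 12 markers 9 had positive and 3 negative changes, while with normexp 2 were positive and 10 negative. Their summed signal was 0.828 to 0.999 against 0.663 to 1.12. None of 10 endothelial markers passed, although 5 had an unadjusted p under 0.05, led by Eng at −0.44 and Kdr at −0.35, with a summed signal of 28.5 to 29.4 against 32.1 to 34.5.

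No gene passed in the marker lists of B cells, dendritic cells, mast cells, fibroblasts, smooth muscle and pericytes, cardiomyocytes or atrial cardiomyocytes. At an unadjusted p under 0.05 these lists held, in that order, 1 of 2, 1 of 6, 2 of 6, 1 of 10, 6 of 9, 0 of 10 and 2 of 6 genes. Over all 17536 genes tested it was 5403. The pairs nearest the threshold were Fcrla and Pax5 at 1.28 and −0.35, Flt3 and Zbtb46 at 0.70 and −0.73, and Mcpt1 and Kit at −0.50 and 0.69. They were Dcn and Dpt at −0.57 and −0.48 in fibroblasts, Myh11 and Tagln at 0.60 and 0.67 in smooth muscle, Actc1 and Mb at −0.22 and −0.22 in cardiomyocytes, and Myl7 and Sln at 5.59 and 2.52 in atrial cardiomyocytes. Of 6 lymphatic markers 1 fell, Lyve1 by 1.33, which resident cardiac macrophages also carry, and Reln had 1.83 ± 0.58 and did not pass.

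The genes that act with chemokines were followed in 8 lists, of which 6 held genes that differed. Of their 115 genes tested 10 fell, or 8.70%, and 1 rose, beside 4.84% and 6.33% of all genes. Among regulators that induce chemokine genes, 1 of 19 fell and 1 rose. Cebpb, a transcription factor of inflammatory and acute-phase genes, stood at 1.33, 1.92 and 1.98 with AACO and 2.61, 2.91 and 2.71 in controls. The gap between groups was wide, and the change was −1.0 ± 0.20 (adjusted p = 0.0299). Tnf, a cytokine that induces many chemokines, had levels of −2.66, −2.71 and −2.68 against −3.13, −3.57 and −3.30. It rose by 0.65 ± 0.13 (adjusted p = 0.0321) on the arrays on which Ccl2, Ccl7 and Cxcl2 were lower. No gene of this list rose with spike-in scaling, normexp or the atrial level as a covariate. None rose without AACO replicate 1 or 2 or without control replicate 2 or 3 either. None fell with spike-in scaling, no scaling or that covariate, or without AACO replicate 1 or 2 or control replicate 3. Rela, a subunit of NF-kappaB, had −0.28 ± 0.09 (adjusted p = 0.0865), and Ifng, Il17a and Il6 were at background on all arrays.

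Adhesion genes that leukocytes need after chemokines have stopped them at the vessel wall gave 3 falls among 16 and no rise. They were Icam2 by 0.84, an endothelial ligand of leukocyte integrins, Selplg by 0.79, the P-selectin ligand, and Itgam by 0.61, an integrin chain of myeloid cells. Among 14 genes of other chemoattractants, C5ar1, the complement C5a receptor, fell by 0.96 and S1pr1, the sphingosine-1-phosphate receptor of endothelium and lymphocytes, by 0.93. Gpr183, an oxysterol receptor, had −0.63 (adjusted p = 0.0767). Of 13 genes that present or cleave chemokines, Sdc4, a heparan sulphate proteoglycan, fell by 1.07, while Sdc1 had −0.44 and the protease Mmp14 had −0.47, neither of which passed.

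Downstream of the receptors 3 of 53 genes tested fell, or 5.66%, close to the 4.84% of all genes. Of 13 genes for G proteins, adenylyl cyclases and PI3 kinases, Gnai3, an inhibitory G protein subunit, fell by 0.73 and Gnb1 by 0.37, and Adcy7 had −0.56 (adjusted p = 0.0624). Of 9 Src family and Jak pathway genes, Stat3 fell by 0.47, and the myeloid kinase Syk had −0.46 and did not pass. Neither the 17 genes of the migration machinery nor the 14 receptor kinases, arrestins and RGS proteins held a gene that passed, with 6 and 3 at an unadjusted p under 0.05. Prex1, Rac1 and Ptk2b led the first with −0.44, −0.32 and −0.53, and Rgs16, Rgs14 and Rgs5 the second with −0.57, −0.41 and −0.34. List medians lay between −0.24 and −0.07, beside 0.04 over all genes. Without scaling between arrays none of the 115 genes tested in the 8 lists fell and 19 rose, and the list medians were 0.24 to 0.41. No gene of the 8 lists passed without AACO replicate 1, without AACO replicate 2 or with the atrial level as a covariate.

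**Figure D4:**
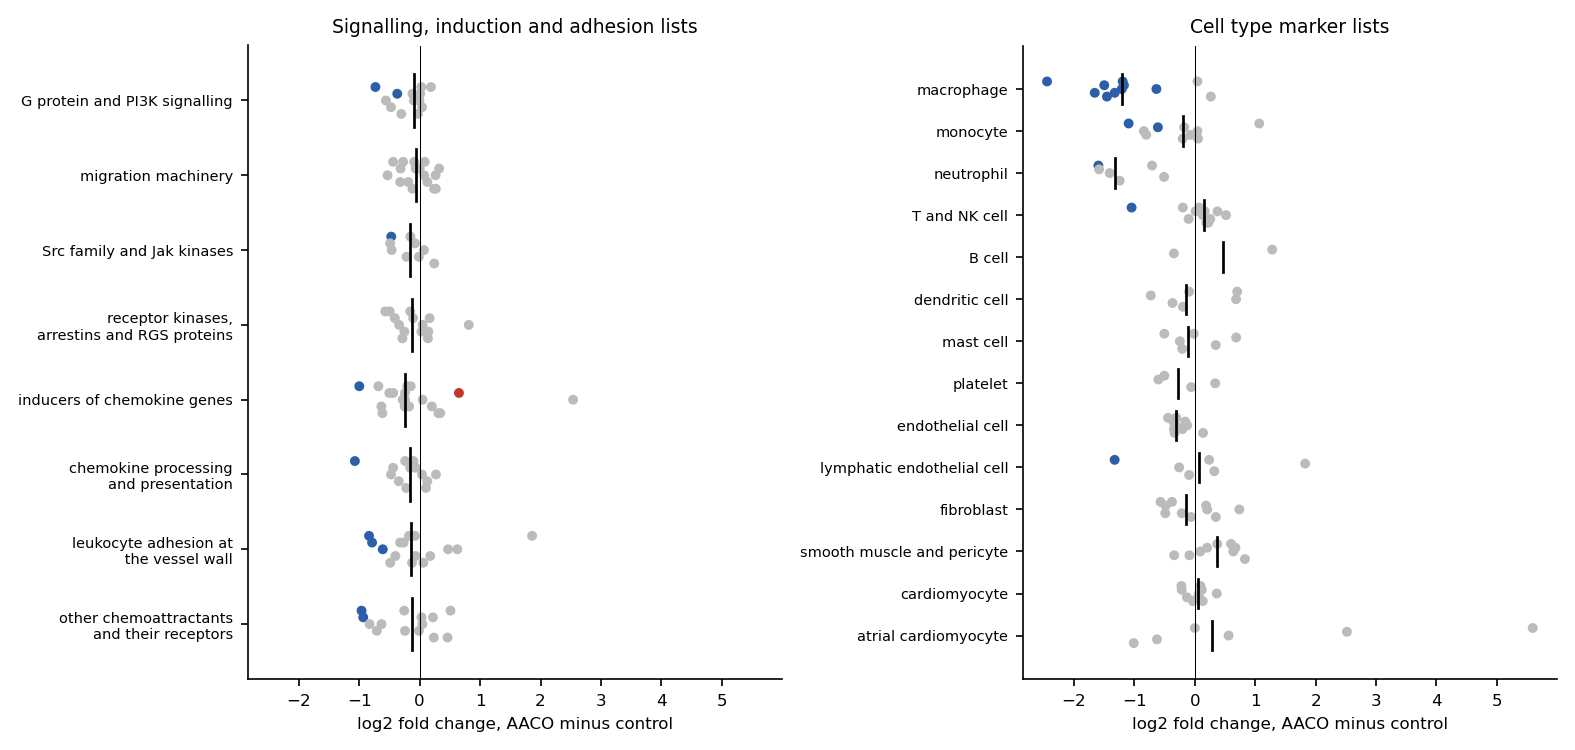
Log2 fold change, AACO minus control, of each tested gene in 8 lists of genes that act with chemokines (left) and 14 lists of cell type markers (right), chemokine genes left out. Each point is 1 gene, blue where it fell, red where it rose and grey where it did not pass, vertical position within a list has no meaning, and the black bar is the list's median. The macrophage list stands to the left, with 9 of 11 genes fallen and a median of −1.21, and the other lists have at most 3 genes that fell.

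The chemokine calls depended on single arrays and on the handling of dim probes. Without AACO replicate 2 none of the 10 genes passed by limma, although 5 chemokine genes were higher and 10 lower at an unadjusted p under 0.05. Of all 17536 genes 2281 were higher and 1741 lower at that p. Without AACO replicates 1 and 3 in turn 4 and 7 of the 10 passed. Without control replicates 1, 2 and 3 in turn 5, 4 and 2 passed. With the atrial level of Myl7 and Sln as a covariate none of the 10 passed and all 10 kept their sign. Without scaling Pf4, Cxcl16 and Cx3cl1 did not pass, and with spike-in scaling Cxcl16, Cx3cl1, Xcl1 and Ccr10 did not. Ccr10 also missed the threshold with median or quantile scaling, at an adjusted p of 0.0529 and 0.0559. Of the 18 alternatives, Ccl2 passed under 16.

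**Figure D5:**
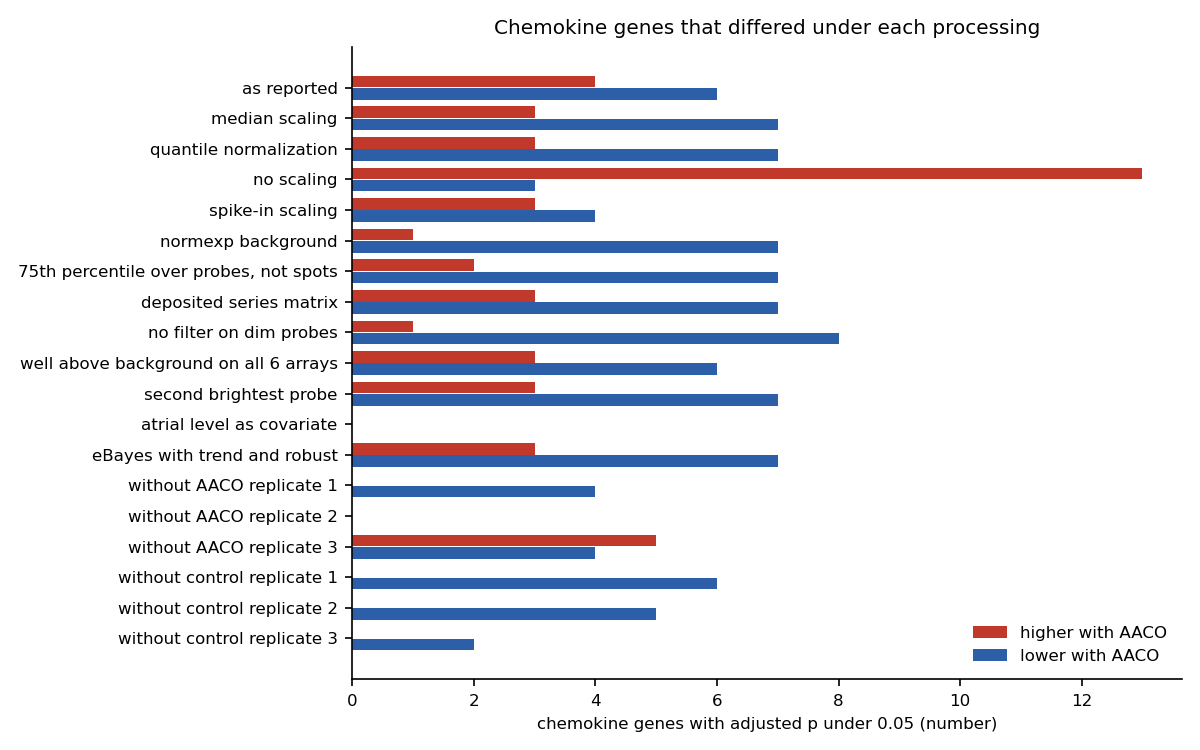
Number of chemokine genes with an adjusted p under 0.05, higher (red) or lower (blue) with AACO, under each way of processing. The top row is the processing reported, with 4 higher and 6 lower. The count of rises runs from 0 to 13 and that of falls from 0 to 8, with no bar where the count is 0.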

How the data were processed

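Whole heart RNA of rats was read on 6 single-colour Agilent arrays. Per the file headers, the deposited intensity of a spot is Agilent Feature Extraction 10.7.1.1's processed signal, corrected for background but not yet scaled from array to array. The series matrix deposited by the authors holds log2 values of the same arrays, with r of 0.998 or more against the scanner values, a common median of 6.77 and a normalization not given in the sources used here.

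Control and outlier spots were left out, spots of 1 probe were averaged on the log2 scale, and each array's 75th percentile was subtracted. Probes well above background on at least 3 of 6 arrays were kept. The brightest probe stood for its gene, and 17536 genes were tested two-sided with lmFit and eBayes of limma 3.58.1 under R 4.3.3, at a threshold of 0.05. Their number, 3 arrays per group, limits the precision. Simulated data for this comparison held 17536 genes, 200 of them changed, with independent noise and no slide effect. There 56% of changes of 1 log2 unit and 87% of changes of 2 were recovered, with 5 false calls. Calls that a slide difference would produce are therefore not covered by it.

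Where no array of a group had a probe well above background, the fold was computed with a floor. For it, each array of the dimmer group took the probe's signal or the lowest signal well above background, whichever was higher. The floor left the fold of Ccr2 unchanged. For Ccr1 and Ccr6 some arrays of the brighter group were dim too, so none of these folds is a minimum.

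The members and lists were chosen with earlier results of these data known. Named were all chemokine genes past the threshold, those without overlap and a change of at least 0.5, the most brightly read of each role, and the 3 genes of each pathway list and 2 of each marker list with the smallest adjusted p. Alternatives covered scaling, background, filter, probe, membership, covariate, variance prior and leaving out each array. Probe positions are those of the array files (rn4), and no gene part is given for them. Promoters are RefSeq's for GRCr8. The values of 1 tested chemokine gene and of 1 gene of a list are not reported here, though both are in the counts.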

Additional observations from a re-analysis of the deposited data

How the results depend on the processing

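With AACO 4 chemokine genes were higher and 6 lower, and 1110 and 848 of all genes, so 40% of chemokine calls and 56.7% of all calls were rises. Chemokine genes higher numbered 13 without scaling, 1 with normexp, 1 without a filter on dim probes, 2 with the percentile taken over probes rather than spots (an alternative chosen after seeing the data) and 0 with the atrial covariate. Chemokine genes lower numbered 3 without scaling and 0 with that covariate, where 2 were higher and 11 lower at an unadjusted p under 0.05. With that covariate 1108 of all genes were higher and 1156 lower at that p. All genes higher numbered 5493 without scaling, where the median of all genes moved to 0.52, and 0 with the covariate. All genes lower numbered 232 without scaling, 508 with spike-ins, 1503 with normexp, 1408 without a filter and 0 with the covariate. Rises were 95.9% of all calls without scaling, 69.2% with spike-ins, 34.7% with normexp, 35.7% without a filter and 45.7% with the percentile over probes. They were 81.3%, 42.9%, 12.5%, 11.1% and 22.2% of chemokine calls. Leaving out 1 array gave 0 to 5 chemokine genes higher, 0 to 6 lower, 106 to 1277 of all genes higher and 147 to 910 lower. Ccr2 reversed under normexp, to −0.17 (adjusted p = 0.494), and the other chemokine genes that differed, with Ccl6, Ccl20, Cxcl1 and Cxcl11, kept their sign under each alternative run. The cause of these differences was not tested. Membership by current gene symbol added Ackr2, for 7 lower. Spike-in scaling gave 3 chemokine genes higher and 4 lower, and the other alternatives with all arrays gave 3 higher and 6 or 7 lower.

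No paired analysis was possible because the titles of AACO and control samples share no replicate numbers. Signals near background limit Cxcl2 and Ccr2, and 16 chemokine genes could not be tested. Slide and treatment cannot be told apart.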
